A study of Mus musculus with 5 samples.

Results

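The loci of 7 genes that govern or mark cell types other than the fibroblast were examined for DNase I hypersensitive sites in mouse 3T9 MycER fibroblasts. The genes were Sox2, Pou5f1, Nanog, Myod1, Neurod1, Alb and Pax6. For 6 of them the window reached 50 kb either side of a given start position on mm9, and for Pax6 it was a given span of 130 kb with no single start. The windows held 21 of the 52181 sites found in the series, a site being a group of overlapping peaks from any list. 3T9 cells are a line of embryonic fibroblasts that serial passage has made immortal. Per the labels, all libraries came from cells of mixed strain made from embryos of embryonic day 13.5, with both c-myc alleles floxed, and infected in vitro with MycER, Myc joined to the part of the estrogen receptor that binds hormone. The sources used here do not say whether the infected cells were a pool or a clone. The vehicle group received ethanol (0 h), and the treated group 400 nM 4-hydroxytamoxifen (4-OHT), which activates MycER, for 4 h. The title of the second 4-OHT library gives this time, and its treatment label gives only the dose.

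Of the 4 deposited peak lists, the first 4-OHT library and the second vehicle library hold the same list, which is called the ambiguous list here. The vehicle list (35149 peaks) and the 4-OHT list (47621 peaks) each carry 1 treatment label, and the ambiguous list (44956 peaks) carries both. With 1 list of undisputed label per treatment there is no replicate spread and no test. The depth of the libraries is unknown, so a locus without a peak had none detected and is not shown to be closed. Scores are the caller's own value per peak, from about 80 upward and piling up at 3100. Since depth may set their size, the nearest and strongest sites are also given with a rank, the percentage of peaks of the same list that scored lower. Fibroblast marker genes were not checked, since no gene positions on mm9 other than those of the 7 genes were used.

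DNase I cuts where DNA is not wrapped in a nucleosome, so active promoters and enhancers appear as hypersensitive sites. Sox2, Pou5f1 (Oct4) and Nanog encode the transcription factors at the centre of the pluripotency network of embryonic stem cells. Myod1 encodes the bHLH factor that can turn fibroblasts into muscle when it is expressed in them, Neurod1 a bHLH factor of neurons and pancreatic endocrine cells, and Pax6 a paired-box factor of eye, brain and pancreas. Alb encodes serum albumin, made by hepatocytes.

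The RefSeq promoter table (GRCm38.p6, 250 bases before to 50 after each start) held 6 of the 7 genes, and Myod1 is named only. The windows ranged from 27 to 3 CG dinucleotides, and 4 are shown because they cover that range and the range of the peak data. Pax6 had no given start on mm9 and was not measured. Among the 6 genes with a given start, only Neurod1 had a peak within 1 kb of it, in the 4-OHT list alone (rank 28.5%). Sox2 has a like CpG content and had none. Nanog was the only one of these genes with a peak within 5 kb of its start in every list. Alb had no peak in its window. The windows are chr2:79456587-79456886 on the minus strand, and chr3:34649745-34650044, chr6:122707239-122707538 and chr5:90460620-90460919 on the plus strand, all on GRCm38.p6. They are written 5′ to 3′, with capitals at each CG dinucleotide.
Neurod1: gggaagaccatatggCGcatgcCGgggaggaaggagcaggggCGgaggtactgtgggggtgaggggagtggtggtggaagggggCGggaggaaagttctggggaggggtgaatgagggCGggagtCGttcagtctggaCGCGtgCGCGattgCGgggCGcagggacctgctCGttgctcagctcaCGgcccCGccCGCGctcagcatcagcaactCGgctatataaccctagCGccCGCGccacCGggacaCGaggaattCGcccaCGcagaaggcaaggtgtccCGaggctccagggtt
Sox2: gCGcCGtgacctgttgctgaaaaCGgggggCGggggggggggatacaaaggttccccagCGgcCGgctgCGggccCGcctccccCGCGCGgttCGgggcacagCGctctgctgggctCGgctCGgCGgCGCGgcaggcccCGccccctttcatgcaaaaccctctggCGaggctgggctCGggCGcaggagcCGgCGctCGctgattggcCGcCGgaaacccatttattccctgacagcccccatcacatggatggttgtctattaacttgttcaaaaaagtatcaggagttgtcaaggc
Nanog: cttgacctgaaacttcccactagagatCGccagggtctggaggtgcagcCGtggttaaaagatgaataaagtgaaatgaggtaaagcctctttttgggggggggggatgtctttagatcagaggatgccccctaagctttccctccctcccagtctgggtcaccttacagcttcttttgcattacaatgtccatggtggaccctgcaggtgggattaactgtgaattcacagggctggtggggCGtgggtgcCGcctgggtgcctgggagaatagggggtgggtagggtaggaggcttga
Alb: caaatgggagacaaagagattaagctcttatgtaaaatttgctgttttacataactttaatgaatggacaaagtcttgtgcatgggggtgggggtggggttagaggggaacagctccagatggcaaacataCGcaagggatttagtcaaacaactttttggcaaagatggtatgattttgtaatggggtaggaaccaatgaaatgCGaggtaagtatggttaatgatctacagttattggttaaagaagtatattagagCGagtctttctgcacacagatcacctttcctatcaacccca
The Sox2 window held 27 CG dinucleotides and that of Neurod1 26, more than 84.5% and 83.1% of the 32851 promoter entries in the table. The Nanog window held 4 and that of Alb 3, with a median of 7 over all entries. The 2 entries of Pax6 held 18 and 16, and those of Pou5f1 11 and 6.

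Short motifs were searched on both strands of these windows. The E-box CACGTG, a site that Myc and Max can bind, was found in none of the entries of the 6 genes, and in 7.15% of all entries. The 7 bases ATGCAAA, the first part of the octamer that POU factors such as Oct4 recognise, were found at Sox2 (first base 99 before the start) and in both entries of Nanog, and in 4.63% of all entries. In Nanog they are part of TTTGCATTACAATG, whose first base lies 75 before the start in the entry shown, where they read TTTGCAT on the other strand and are followed after 1 base by ACAATG, letters that Sox factors can bind. This composite, with any base between its parts, was written with the Nanog sequence in view and includes the 7 bases searched before it. It was found in 2 of the 32851 entries, both of Nanog. The windows of these 2 entries overlap, and the match is the same stretch of the genome in each. These matches describe letters in the promoter windows. The peaks are on mm9 and were not placed on these sequences.

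No promoter among the 6 genes with a given start had a peak in every list. Within 1 kb of the start, 1 of the 6 (Neurod1) had a peak, in the 4-OHT list alone, and Sox2, Pou5f1, Nanog, Myod1 and Alb had none in any list. Over the genome, 6.65% of positions lay within 1 kb of a peak of any list, and 4.46%, 5.72% and 5.89% within 1 kb of a peak of the vehicle, ambiguous and 4-OHT lists. Most of these positions are not promoters, and the share of promoters with a peak was not computed, since other gene starts on mm9 were not used. The given starts are multiples of 500 bp, so distances smaller than that are not resolved. The median distance from the 6 starts to the nearest peak was 12.9 kb in the vehicle list, 6.99 kb in the ambiguous list and 5.34 kb in the 4-OHT list. The lists differ in length, with 35149, 44956 and 47621 peaks in that order. Cut to equal length, the medians were 12.9 kb, 51.5 kb and 5.34 kb, so the order of the lists did not hold.

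**Figure D1:**
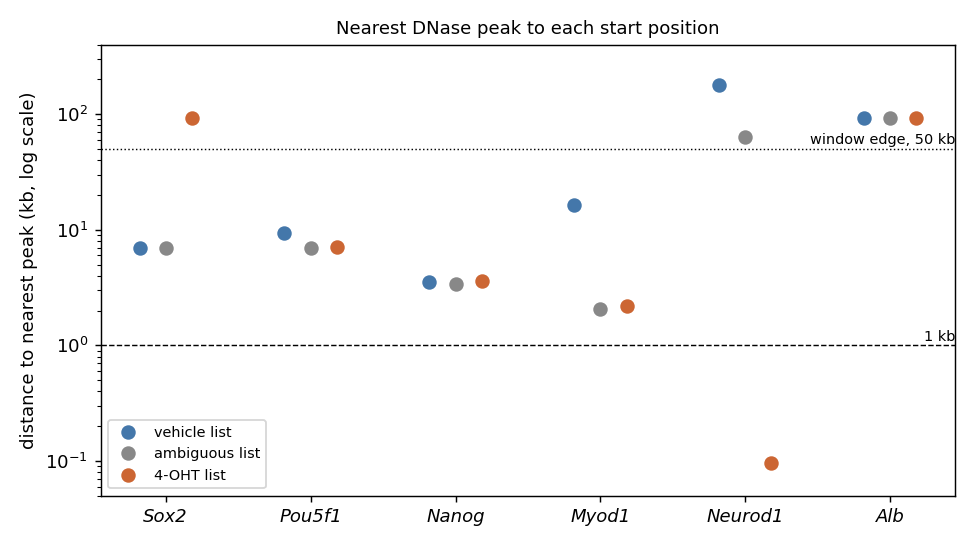
Distance in kb (log scale) from the start position of each of 6 genes to the nearest peak edge in the vehicle, ambiguous and 4-OHT lists, with lines at 1 kb and at the window edge of 50 kb. The only point under 1 kb is that of Neurod1 in the 4-OHT list, while Alb lies beyond 50 kb in every list.

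The windows differed widely in how many sites they held. Pou5f1 had 8 sites, Nanog 6, Myod1 3, Neurod1 2, Sox2 1 and Alb 0 in windows of 100 kb, and Pax6 had 1 in its 130 kb. Of 25709 tiles of 100 kb, 52.5% had a site in any list, with a median of 1 site. As many sites as at Pou5f1 or more were in 6.92% of tiles, and as many as at Nanog or more in 12.3%. The other windows of 100 kb lay nearer to the middle of the tiles, with Alb among the 47.5% of tiles that had none. The Pax6 span was set against 19785 tiles of its own length, of which 56.3% had as many sites or more. Tiles were taken without regard to genes, whereas the windows were placed at genes. The Pou5f1 and Nanog windows together held 14 of the 21 sites, and 8 of these 14 were in every list. In the other 5 windows 1 of 7 sites was in every list, at Myod1. Over all windows 9 of 21 sites (42.9%) were in every list, against 61.1% of all sites of the series.

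**Figure D2:**
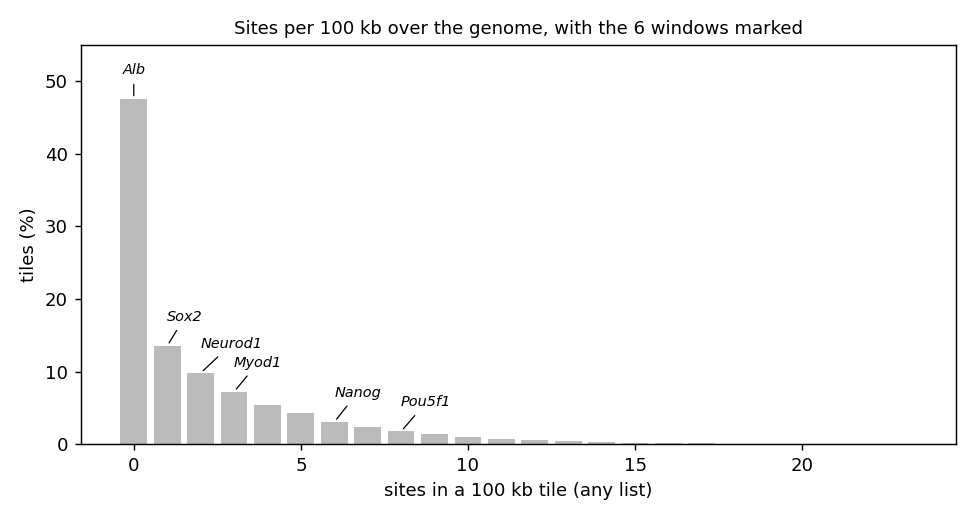
Percentage of 25709 tiles of 100 kb (y axis) by the number of sites they hold from any list (x axis), with the 6 windows of the same length marked. Alb stands at 0 sites, Sox2 at 1, and Nanog and Pou5f1 at 6 and 8 in the upper tail.

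At Sox2, a HMG-box factor of stem cells and neural progenitors, the 1 site lay upstream of the gene at chr3:34541196-34542099, 6.90 kb from the start. It was a weak peak, with a score of 109 in the vehicle list (rank 13.5%) and 99.9 in the ambiguous list (rank 9.72%), and no peak in the 4-OHT list. The next site on the other side of the start, chr3:34642125-34643146, was 93.1 kb away and outside the window. It was in every list, with scores of 219 (vehicle), 344 (ambiguous) and 534 (4-OHT). The start of Sox2 thus lay in a stretch of 100 kb without a peak in any list, and 62.5% of the genome lay in stretches of that length or longer.

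At Pou5f1, a POU-domain factor, the start had no peak but strong sites stood downstream. The nearest site, chr17:35649977-35651392, began 6.98 kb from the start. It scored 114 in the ambiguous list (rank 14.8%) and 149 in the 4-OHT list (rank 26.5%), with no peak in the vehicle list. The strongest, chr17:35652450-35655662, began 9.45 kb from the start and reached 3100 in all 3 lists, with peak widths of 2820 bp (vehicle), 2297 bp (ambiguous) and 2961 bp (4-OHT). A second strong site began at 42.7 kb, chr17:35685731-35687613, with scores of 2077, 3100 and 2963 in the same order. Its neighbour at 44.7 kb scored 658, 839 and 541. These 3 sites were in every list, with ranks of 85.3% to 92.2%, 85.3% to 89.0% and 61.9% to 65.9%. Peaks tied at 3100 share 1 rank per list, 92.2% (vehicle), 85.3% (ambiguous) and 89.6% (4-OHT). The ranks of the strongest site therefore differ only by how many peaks reach 3100 in each list. The site at 38.4 kb, also in every list, ranked at 0.469% (vehicle, score 80.8), 34.0% (ambiguous, score 199) and 23.9% (4-OHT, score 138). The other 3 sites had no peak in the vehicle list. Those 21.3 kb upstream and 27.7 kb downstream were in the ambiguous and 4-OHT lists, with scores of 107 to 207. The site 40.0 kb upstream was in the 4-OHT list alone, with a score of 265. In the GRCm38 gene table the protein-coding genes next to Pou5f1 are the MHC class I genes H2-Q7 and H2-Q10 on the lower side, and Tcf19 and Cchcr1 on the higher side, where the strong sites stood. The sites were not assigned to genes.

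At Nanog, a homeobox factor of stem cells, a strong site stood close upstream in every list. This site, chr6:122651846-122654122, ended 3.38 kb before the start, with peak widths of 2086 bp (vehicle), 2194 bp (ambiguous) and 2079 bp (4-OHT). It scored 2409 in the vehicle list (rank 88.3%), 3100 in the ambiguous list (rank 85.3%, the rank of all peaks tied at 3100 there) and 2490 in the 4-OHT list (rank 86.4%). Between 9.98% and 13.0% of genome positions, depending on the list, lay as near to a peak as the start of Nanog did. Further sites in every list were found 17.2 kb upstream (scores 694, 1017 and 1077), 37.3 kb upstream (339, 472 and 467) and 32.0 kb downstream (208, 504 and 496), in the order vehicle, ambiguous and 4-OHT. The remaining sites were weak peaks of 1 list, 46.1 kb upstream in the ambiguous list (82.3) and 12.2 kb downstream in the 4-OHT list (108). In the gene table Nanog lies between Dppa3, a germ cell and early embryo gene, and Slc2a3, which encodes a glucose transporter.

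At Myod1 the nearest site, chr7:53634071-53635040, began 2.07 kb from the start toward higher coordinates. It scored 148 (ambiguous, rank 24.2%) and 154 (4-OHT, rank 27.7%) and had no peak in the vehicle list, whose nearest peak was 16.3 kb away. That peak belongs to the site chr7:53648243-53649267, the strongest of the window and in every list, with scores of 162 (vehicle), 344 (ambiguous) and 247 (4-OHT) and ranks of 28.8%, 48.7% and 42.8%. Another site, 38.5 kb away toward lower coordinates, scored 85.7 in the ambiguous list alone. Every peak of the window ranked under 50% of its list.

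At Neurod1 both sites were in the 4-OHT list alone. The nearest and strongest, chr2:79293994-79294904, ended 96 bp from the given start, less than the precision of that position, so whether the peak covers the start is not resolved. It was 911 bp wide and scored 157 (rank 28.5%). The other, 44.4 kb away on the upstream side, scored 83.5 (rank 2.28%). The nearest peak to the start was 180 kb away in the vehicle list and 63.2 kb away in the ambiguous list, both outside the window. The presence of a peak at this start therefore rests on 1 library.

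The Pax6 span held 1 weak site, chr2:105516059-105516944, which lies 56.1 kb from the lower end of the span. It scored 111 in the vehicle list (rank 14.4%) and 121 in the ambiguous list (rank 16.9%) and had no peak in the 4-OHT list. Stronger sites flanked the span. The site chr2:105455497-105457255, 2.75 kb below it, scored 316 (vehicle), 390 (ambiguous) and 350 (4-OHT), and the site chr2:105743904-105745508, 154 kb above it, scored 2938, 3100 and 3100. In the gene table Pax6 lies between Rcn1 and Elp4, and introns of Elp4 are known to hold regulatory elements of Pax6. Since no Pax6 start on mm9 was given, this site was not measured against a promoter.

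At Alb no list had a peak within 50 kb of the start. The nearest site, chr5:90793818-90796487, was 93.5 kb away on the upstream side and strong in every list, with scores of 2555 (vehicle), 3100 (ambiguous) and 3100 (4-OHT). On the other side the nearest was chr5:91017558-91018704, 128 kb away, with scores of 233, 405 and 440. The stretch of 221 kb between them was the longest around any of the 6 starts, and 49.9% of the genome lay in stretches of that length or longer. In the gene table Alb is followed by Afp and Afm, which encode alpha-fetoprotein and afamin, also liver proteins.

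**Figure D3:**
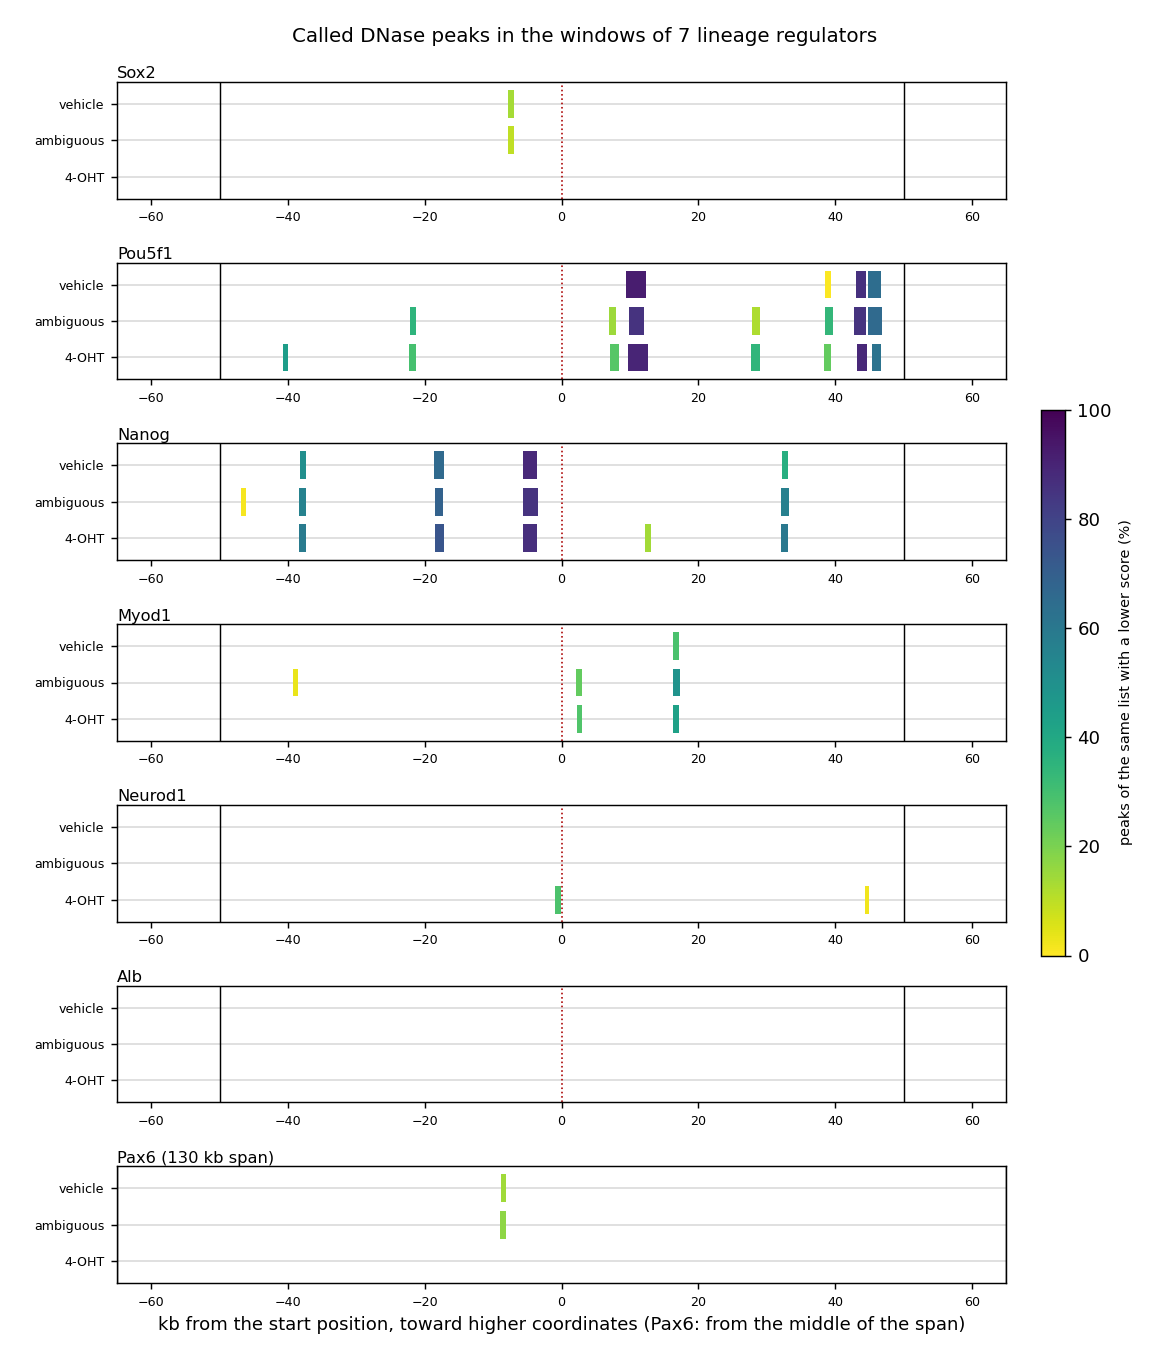
Peaks of the vehicle, ambiguous and 4-OHT lists drawn to scale against the distance in kb from the start position (dotted line) of 6 genes, and from the middle of the span for Pax6, with solid lines at the window edges. The colour gives the percentage of peaks of the same list that scored lower, and the dark bars at Pou5f1 and Nanog are present in all 3 lists.

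Of the sites near the window edge, the farthest inside were those at 46.1 kb from Nanog (1 list) and 44.7 kb from Pou5f1 (3 lists). The nearest outside were at 50.4 kb from Pou5f1 and 50.8 kb from Nanog, each in 3 lists.

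The lists of undisputed label were compared at these loci for sites present in 1 and absent from the other. The 4-OHT list had 17 sites in the windows, of which 8 (47.1%) had no peak in the vehicle list, against 29.6% of all its sites. They were 4 sites at Pou5f1, 1 at Nanog, 1 at Myod1 and both sites at Neurod1. The vehicle list had 11 sites, of which 2 (18.2%) had no peak in the 4-OHT list, those of Sox2 and Pax6, against 3.87% of all its sites. The missing sites ranked at 44.8% or lower in the lists that held them. Of the 4-OHT sites in the windows, 8 of the 10 that scored under 300 had no vehicle peak, and 0 of the 7 at 300 or above. Over the series, 60.3% of 4-OHT sites under this limit and 1.59% at or above it lacked a vehicle peak. Of the vehicle sites in the windows, 2 of the 3 that scored under 120 had no 4-OHT peak, against 18.1% over the series. Both limits were chosen after the scores had been seen. The ambiguous list had a peak at 4 of the 8 sites, against 7335 of the 13751 such sites over the series. It also had a peak at both of the 2 vehicle sites, for which the share over the series was not computed. With each list cut to the length of the shortest, the counts were 6 sites of the 4-OHT list alone and 3 of the vehicle list alone, in place of 8 and 2. The shares over all sites at equal length were not computed, so these counts have no value of the series beside them. Treatment and library cannot be told apart in these counts.

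**Figure D4:**
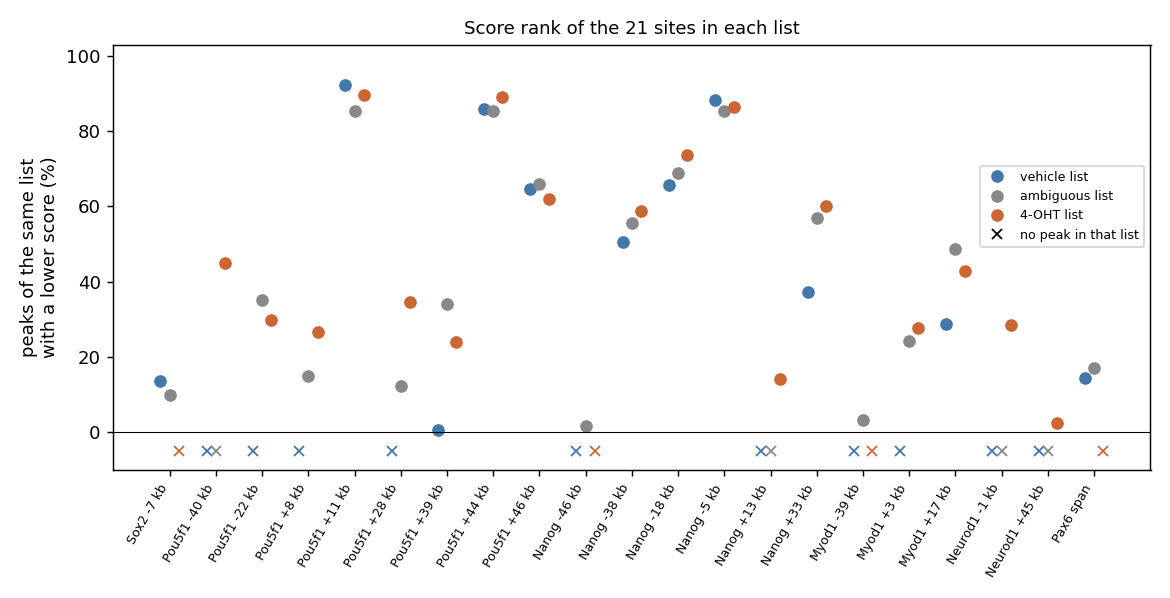
Rank of each of the 21 sites, as the percentage of peaks of the same list that scored lower (y axis), in the vehicle, ambiguous and 4-OHT lists, with crosses where a list has no peak and sites labelled by the distance of their middle from the start. Crosses occur only at sites whose highest rank is under 50%, and the site ranks above 80% are those of Pou5f1 at 11 and 44 kb and of Nanog at 5 kb upstream.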

How the data were processed

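DNase-seq peak lists were used from 4 of the 5 samples, and the input of sonicated genomic DNA was not analysed here. The submitters' processing notes name mm9 as the build, MACS 1.4.1, BWA 0.6.2 and SAMtools, with no settings. Each peak has a score deposited by the authors. Its meaning is not stated in the files, and on the scale usual for this version of MACS a higher score stands for a smaller p-value. Read depth is unknown, so no read-based interval is given.

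Overlapping peaks (1 bp or more) of the 3 distinct lists were joined into sites. A site belonged to a window it overlapped. A promoter had a peak where a peak covered the given start or had an edge within 1000 bp of it. Starts are counted from 1. Tiles, stretches and shares of the genome run from the first to the last site of each nuclear chromosome, and stretches are gaps between sites of any list. CpG and motif counts came from the RefSeq promoter table on GRCm38.p6, and gene order by name only from the RefSeq gene table of the same build, in which all 7 genes matched. The code was tested on 6000 simulated sites, of which 100% were placed in the right lists, and 200 distances, of which 100% were right. The simulated sites stood far apart, so the joining of close neighbours was not tested. Python 3.11.15, numpy 2.4.6 and matplotlib 3.10.9 were used. No test was made, as each treatment has 1 list of undisputed label. Each window is described by its nearest and its strongest site. Further lineage and cell type markers were planned only for positions on mm9 and were not used. The genes and windows were chosen with earlier results of these data known. Alternatives were other promoter and window widths, a score of at least 100, equal list length, other merging, leaving out lists and each label of the ambiguous list.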

Additional observations from a re-analysis of the deposited data

How the results depend on the processing

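Promoters with a peak in every list stayed at 0 under each alternative run. Promoters with a peak in at least 1 list were 1, became 2 (Neurod1 and Myod1) within 2500 bp, and ranged from 0 to 1 when lists were left out, with 0 without the second 4-OHT library. The 21 sites and the 9 in every list became 11 and 4 at 25 kb either side, and 44 and 23 at 100 kb, as narrower or wider windows must hold fewer or more. The Pax6 span stayed at 130 kb in the narrower setting and was widened by 50 kb on each side in the wider one. When a list was left out, every list meant the 2 that remained, a looser rule. The counts of all sites and of sites in every list then ranged from 17 to 21 and from 9 to 13. They were 18 and 8 with a score of at least 100, and 17 and 8 at equal list length. With peaks within 500 bp joined they were 20 and 8, as the Pou5f1 sites at 42.7 kb and 44.7 kb then form 1 site. Each label of the ambiguous list was also tried, with a peak then required in both lists of the treatment that has 2 and none in the other treatment. Counted as 4-OHT, it left 4 sites of 4-OHT only and 0 of vehicle only. Counted as vehicle, it left 4 and 2, in place of the 8 and 2 from single lists under a looser rule. The median distance in the ambiguous list rose from 6.99 kb to 44.5 kb with a score of at least 100 and to 51.5 kb at equal list length, as the Sox2 distance (to 93.2 kb in both) and the Neurod1 distance (63.2 kb to 81.9 kb and 180 kb) grew, and at equal length that of Pou5f1 (6.98 kb to 9.79 kb). Of 54 single distances under an alternative, 43 moved by less than the spread over the lists. That spread is wide where the lists disagree and narrow where they agree, so the count does not show that distances were stable. For Neurod1 in the ambiguous list, the move from 63.2 kb to 81.9 kb with a score of at least 100 counted as less. For Alb in that list, the move from 93.5 kb to 94.8 kb, measured to the middle of the peak, counted as more. No paired analysis was possible because 1 list stands in both groups and no test was made. Unknown depth limits every absence.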
